A study of Mus musculus with 101 samples.

Results

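The 88 regions described here are targets of a captured methylation panel that its authors filed under the category aging_Meer and that carried little methylation in naive mouse embryonic stem cells. They were selected on their measured methylation: a region had to have a value in at least 80% of the lines and a mean over lines under 10%. Of 868 target regions, 224 carried the category, 221 of these had enough values, and 88 had a mean under 10%. The sources used here do not say what the category name stands for. The cells were lines derived from Diversity Outbred mice, an outbred stock descended from several inbred founder strains, and all were grown in serum with LIF and 2i, so that every group compared shares the same culture. By the prefix of their name, the 85 lines comprised 28 B1, 18 B2, 20 B3A and 19 B3B lines, and the sources used here state neither the meaning of the prefix nor the sex, passage or genotype of a line. Each value is the average methylation of a target window in 1 line, measured by enzymatic methyl sequencing and written here as a percent. Without read counts in the tables, the depth of a value could not be known, and counting error is given for none.

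DNA methylation in mammals sits mainly on the cytosine of CpG dinucleotides, where the DNA methyltransferases write it and dilution at replication or TET oxidation removes it. CpG-rich promoters and developmental genes are usually kept free of it, while most other CpGs of somatic cells carry it. Embryonic stem cells held in the naive state by 2i, a pair of kinase inhibitors, are known for a genome-wide loss of methylation. Sites whose methylation moves with age are used elsewhere as readouts of biological age, and many such sites lie in CpG-rich DNA near developmental genes.

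Some of the windows covered a promoter, and the DNA shows how differently the low regions are built. The bases below lie upstream of a RefSeq start site (build GRCm38.p6, the coordinates of mm10), inside the target window, 5′ to 3′ on the strand of the gene. Capitals mark the CpGs that the deposited CpG table measured. Ephb3 is shown as the region with the lowest mean and Dab1 as another of the lowest. Trank1 and Rasef are shown as stretches dense in CpGs and read at most of them, and Dmrta1 for the gradient over its upstream CpGs. Whether the Rasef stretch is promoter DNA was not tested.
Ephb3, chr16:21204551-21204794, plus strand: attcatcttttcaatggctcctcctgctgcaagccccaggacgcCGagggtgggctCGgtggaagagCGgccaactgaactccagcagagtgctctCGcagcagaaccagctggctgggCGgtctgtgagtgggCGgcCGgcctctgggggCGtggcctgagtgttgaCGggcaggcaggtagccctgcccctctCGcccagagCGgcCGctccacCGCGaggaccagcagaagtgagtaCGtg
Dab1, chr4:104367288-104367537, plus strand: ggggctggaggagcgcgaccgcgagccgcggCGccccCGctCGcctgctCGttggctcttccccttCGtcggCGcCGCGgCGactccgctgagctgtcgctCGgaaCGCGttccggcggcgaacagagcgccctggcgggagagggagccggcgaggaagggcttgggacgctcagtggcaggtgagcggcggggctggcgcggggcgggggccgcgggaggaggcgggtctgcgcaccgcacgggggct
Trank1, chr9:111311489-111311738, plus strand: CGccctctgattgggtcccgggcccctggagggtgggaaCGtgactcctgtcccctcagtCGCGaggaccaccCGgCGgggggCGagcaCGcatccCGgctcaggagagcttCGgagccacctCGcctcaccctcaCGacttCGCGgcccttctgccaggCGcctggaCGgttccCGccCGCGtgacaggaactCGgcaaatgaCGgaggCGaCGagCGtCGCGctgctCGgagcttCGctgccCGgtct
Rasef, chr4:73790634-73790852, minus strand: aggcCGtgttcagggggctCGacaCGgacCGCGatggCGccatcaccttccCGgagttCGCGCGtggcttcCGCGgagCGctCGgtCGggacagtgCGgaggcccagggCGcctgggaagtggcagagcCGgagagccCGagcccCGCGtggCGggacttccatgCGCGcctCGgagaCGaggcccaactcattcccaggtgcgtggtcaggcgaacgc
Dmrta1, chr4:89687953-89688197, plus strand: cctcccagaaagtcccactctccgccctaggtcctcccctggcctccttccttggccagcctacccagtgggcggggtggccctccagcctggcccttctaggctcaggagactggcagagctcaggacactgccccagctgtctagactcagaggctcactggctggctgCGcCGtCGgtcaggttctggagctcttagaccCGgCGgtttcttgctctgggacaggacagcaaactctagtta

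The Ephb3 stretch of 244 bases holds 16 CpGs, of which 15 were measured, and their means over lines ran from 0.0359% to 1.44% with a median of 0.127%. Dab1, the gene of an adaptor of reelin signalling, has 40 CpGs in 250 bases, 12 of them measured, with means from 0.0647% to 1.10%. All but 1 of the 30 CpGs of Trank1 were measured, and their means ran from 0.138% to 2.61%. In Rasef, whose window ended short of the start site, 26 of 29 CpGs were measured and the range was wider, from 0.729% to 7.21%. Dmrta1, a DM-domain transcription factor gene, has 7 CpGs in 245 bases. Its 5 measured CpGs fell in order towards the start site, from 6.38% ± 6.66 (SD, n = 85) at 74 bases upstream through 4.11%, 2.76% and 0.992% to 0.793% ± 1.71 (SD, n = 85) at 39 bases upstream. The CpG at 74 bases was the higher of these 2 in 64 of 85 lines, equal in 20 and lower in 1. Of the 11 members whose own start site in the RefSeq promoter table lay inside the window, 9 had at least 10 CG dinucleotides in the 300 bases around that start, against 43.5% of all 32851 promoters of that length. CG reads the same on both strands and overlaps no other motif searched.

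The low regions spanned a wide range even under their ceiling. Of the 88, 23 had a mean under 1%, 40 a mean from 1% to 5% and 25 a mean from 5% to 10%, as the ranked plot shows. These levels chose the regions and are given as a description. The lowest were Ephb3, the gene of an ephrin receptor (chromosome 16, 21204551 to 21205051), at 0.186% ± 0.263 (SD, n = 85), Nlrp5-ps, a pseudogene, at 0.307% ± 0.483 (SD, n = 81) and Gm35364 at 0.307% ± 0.299 (SD, n = 85). Just inside the ceiling lay Sema7a at 9.08%, Cnmd at 9.47% and Gdf1 at 9.69%. Just outside it lay Tpcn1 at 10.9%, Asap3 at 11.01% and Tm6sf1 at 11.3%, so that the means on the 2 sides of the ceiling were close. Of the 7459 region values measured in members, 432 were 0, 580 were over 10%, 33 were over 25% and none was over 50%.

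**Figure D1:**
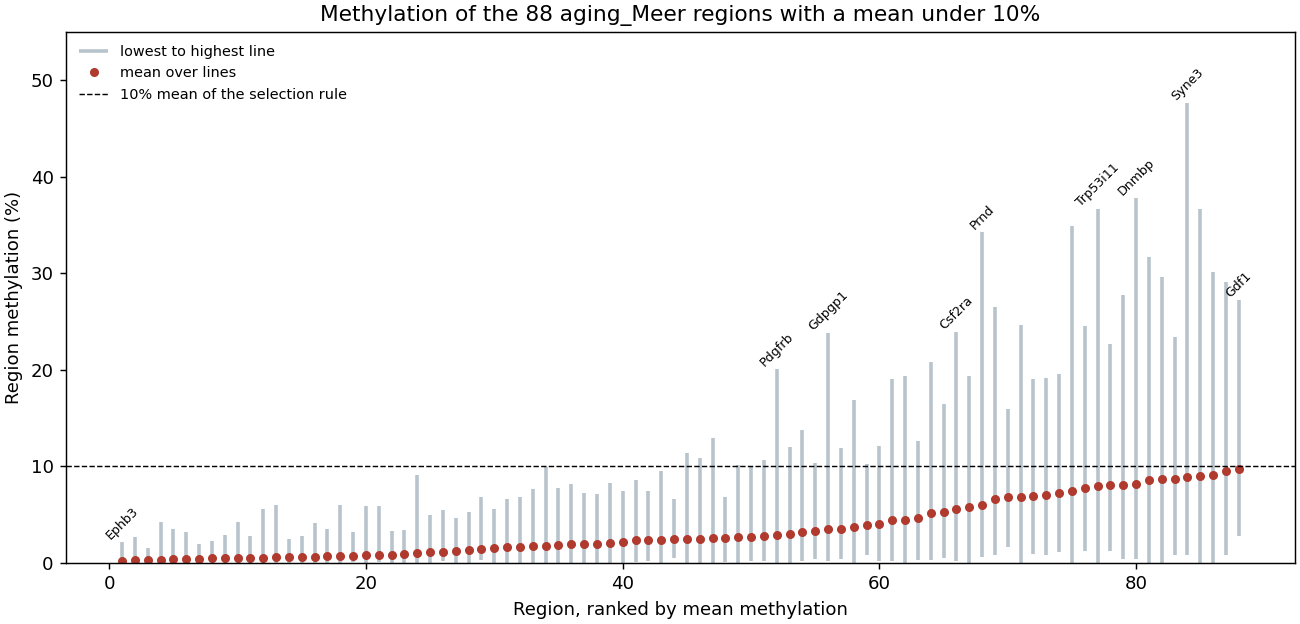
Lowest to highest line (grey bars) and mean over lines (points) of region methylation in percent for the 88 regions, ranked by mean. The highest line stood at 2.10% at Ephb3, the lowest region, and at 47.7% at Syne3.

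Regions with a higher mean also reached further in their highest lines. The highest line of a region stood at 1.49% to 6.02% among the 23 regions under 1%, and at 15.98% to 47.7% among the 25 regions from 5% to 10%. In all, 42 regions exceeded 10% in at least 1 line and 13 exceeded 25%. Syne3, which encodes the nuclear envelope protein nesprin-3, ran from 0.782% to 47.7% with a median of 6.89%. Dnmbp, a scaffold gene of actin regulation, ran from 0.345% to 37.8% with a median of 6.16%. Elfn1, a gene of synaptic adhesion, ran from 0% to 36.7% with a median of 6.997%. Of the 85 lines, 28 exceeded 10% at Syne3, 23 at Dnmbp and 28 at Elfn1. Trp53i11, a p53-inducible gene, ran from 0% to 36.6% with a median of 6.10%. The others among the 8 with the largest SD were Lrp1, Npas1, Sema7a and Prnd, the gene of the prion-like protein doppel, with SDs of 6.84, 6.48, 6.75 and 6.46 points.

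The members differed from the other kept aging_Meer regions in position and in the number of measured CpGs, which the rule did not use. Of the 68 members with a start site in the RefSeq promoter table for their gene, 27 (39.7%) were centred within 1 kb of it, against 16 of 103 (15.5%) among the aging_Meer regions with a mean of 10% or more. The share was 53.5% for the aging_Young and aging_shared regions with a mean under 10%, of which there were 85, 70.8% for the low regions of all categories but aging_Meer and 52.6% over all kept regions. Members held a median of 15 measured CpGs per window, against 5 in the higher aging_Meer regions and 11 in the low aging_Young and aging_shared regions. Among members this number was lower at higher levels, with a median of 22 under 1%, 15 between 1% and 5% and 6 between 5% and 10%. These shares and medians are descriptions, and no test was made of them. The counts cover only CpGs of the deposited CpG table, of which 10 members held none. They therefore depend on which CpGs were measured as well as on how many a window holds. The windows overlapped a gene in 85 cases and lay within 5 kb of one in 3, and they were spread over 18 chromosomes.

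Within some windows, methylation was concentrated on a few CpGs. The 1715 measured CpGs of the members lay in 78 of the 88 windows, and in 25 windows at least 1 CpG had a mean over 10%. At Npas4, an activity-dependent transcription factor gene of neurons with a window mean of 5.21%, the 24 CpGs ran from 1.07% to 31.5% ± 15.9 (SD, n = 85), and 2 were over 10%. The higher of these 2 lay 188 bp from the window's centre, and the median CpG stood at 4.12%. Fam83g had 51 CpGs with a median of 1.88%, a lowest mean of 0.116% and a highest of 27.01% ± 13.97 (SD, n = 85) at 239 bp from the centre. Both windows were low at most CpGs and had their highest CpG near an edge.

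Other windows were uneven as well, some of them over more CpGs. Arhgef40 had 2 of 18 CpGs over 10%, the highest at 28.02%. Ltbp3, a gene of latent TGF-beta binding, ranged from 0.974% to 28.7%, with 8 of 28 CpGs over 10%. Foxa2, a pioneer transcription factor gene of endoderm, ranged from 1.70% to 26.8%, with 7 of 28 over 10%. Gdf1 had its high CpGs in more than 1 place, with 10 of 21 over 10% and the highest at 31.005%. Ephb3 had 38 measured CpGs and none with a mean above 1.44%. A low window average thus covered windows that were low at every measured CpG and windows with single CpGs above 20%, of which there were 8. Npas4, Fam83g, Arhgef40, Ltbp3, Foxa2 and Gdf1 were among these 8.

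**Figure D2:**
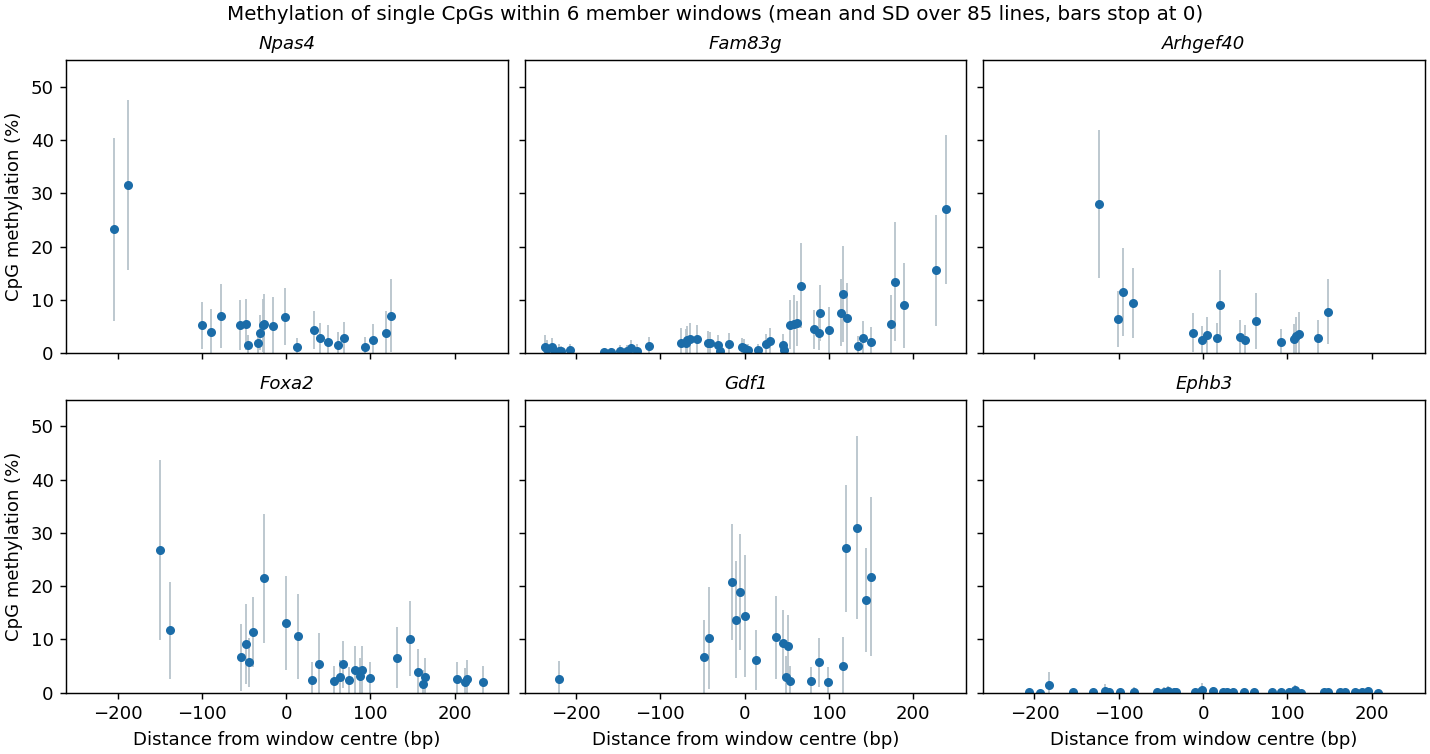
Mean and SD over 85 lines of single CpGs (percent) against distance from the window centre (bp, in the direction of the plus strand) in 6 members. At Npas4, Fam83g and Arhgef40 the highest CpGs lie towards one edge, at Gdf1 they form separate groups, and at Ephb3 no CpG mean is above 1.44%.

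Lines differed in how methylated the members were as a set. The mean over members in a line ran from 0.532% in the B3A line B3Ad29N to 9.64% in the B1 line B1dA5, with a median of 2.86%. The median line had 2 members over 10%, and the B2 line B2d9 had 33. This level followed the rest of the panel: across the 85 lines, the member mean and the mean of the 699 kept regions that are not members had a Pearson r of 0.94 and a Spearman rank correlation of 0.95. Taken prefix by prefix (B1, B2, B3A, B3B), r was 0.89, 0.92, 0.95 and 0.97. The points share the library and its unknown depth, so these values are a description. In the same order, the member mean amounted to 15.97%, 16.6%, 15.8% and 16.7% of the mean of the non-members.

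The regions did not follow the panel equally. The median r of a member with the mean of the non-members was 0.70 over the 88, 0.23 for the 23 under 1%, 0.72 for the 40 between 1% and 5% and 0.86 for the 25 from 5% to 10%. Over the 133 aging_Meer regions with a mean of 10% or more it was 0.95, each region set against the mean of all other kept regions. Taken in that way, it was 0.55 in the low aging_Young and aging_shared regions. In the low regions of all categories but aging_Meer it was 0.62. The 5 highest were Cnmd, the gene of chondromodulin (0.94), Gdf1 (0.93), Ltbp3 (0.93), Zfp648, a zinc finger gene (0.92), and Pde2a, a phosphodiesterase gene (0.91). Within the 4 prefixes Cnmd kept values of 0.92, 0.92, 0.95 and 0.97. Dmrta1 reached 0.90 with a mean of 1.99%. For each 10 points of the panel mean, the fitted line rose by 5.21 points at Cnmd, 4.52 at Gdf1, 1.23 at Dmrta1 and 0.0155 at Ephb3.

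**Figure D3:**
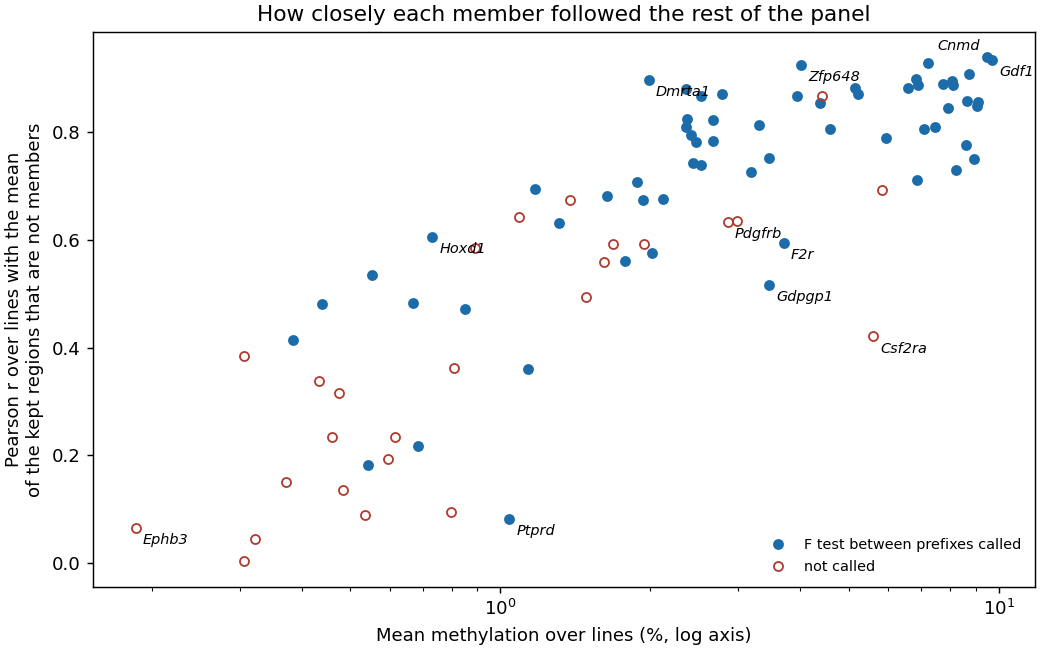
Pearson r over lines between a region and the mean of the non-members, against the region's mean methylation (percent, log axis), for the 88 members. Of the 50 regions with a mean over 2%, 42 lie above 0.7, while Gdpgp1, F2r, Pdgfrb and Csf2ra lie below it.

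The 5 lowest values of r were at regions with a mean of 1.04% or less: Nlrp5-ps (0.00294), Dab1 (0.0454), Ephb3 (0.0653), Ptprd (0.0817) and Prdm13 (0.0895). Csf2ra, the gene of a GM-CSF receptor chain, is named here after its values were seen, because it had a level of 5.61% ± 4.52 (SD, n = 85) and an r of 0.42. At Csf2ra B1 lines ran from 0.828% to 16.9% with a median of 5.46%, B2 lines from 0.210% to 11.98% with a median of 5.28%, B3A lines from 0.179% to 23.9% with a median of 2.80% and B3B lines from 0.715% to 14.5% with a median of 5.35%. The 4 ranges overlap almost wholly, and the highest value came from a B3A line. Its prefixes did not differ past the threshold (limma F test, adjusted p = 0.297).

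One line stood apart at the least methylated regions. B1dB33, a line that has 2 titles in the labels, had the highest value of all lines at 15 of the 23 members under 1%, and its mean over those 23 was 3.19%. The next line, B2d9, had 1.57%, and the median line 0.446%. B1dB33 was at more than 3 times the mean over lines at 19 of the 23. At the 25 members from 5% to 10% the same line ranked 25th with 9.44%, and its mean over the non-members, 23.1%, ranked 31st. Its values were 2.10% at Ephb3, 5.58% at Prdm13, 4.08% at Fzd5 and 3.19% at Hoxd1, the highest of any line at each. The 66 kept regions of other categories with a mean under 1% also had B1dB33 first, at 2.19%.

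Without B1dB33, r between the mean of the 23 and the non-members went from 0.42 to 0.57, while at the 25 higher members it was 0.95 with and without the line. The Spearman rank correlation for the 23 was 0.55 with and without B1dB33. A second B1 line, B1dB25, had the highest value at Dab1, with 4.25%, and at Ptprd, with 9.13%, although its mean over the non-members, 15.5%, ranked 56th. The depth and conversion of these libraries cannot be read from the tables, and their part in these values was not tested.

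**Figure D4:**
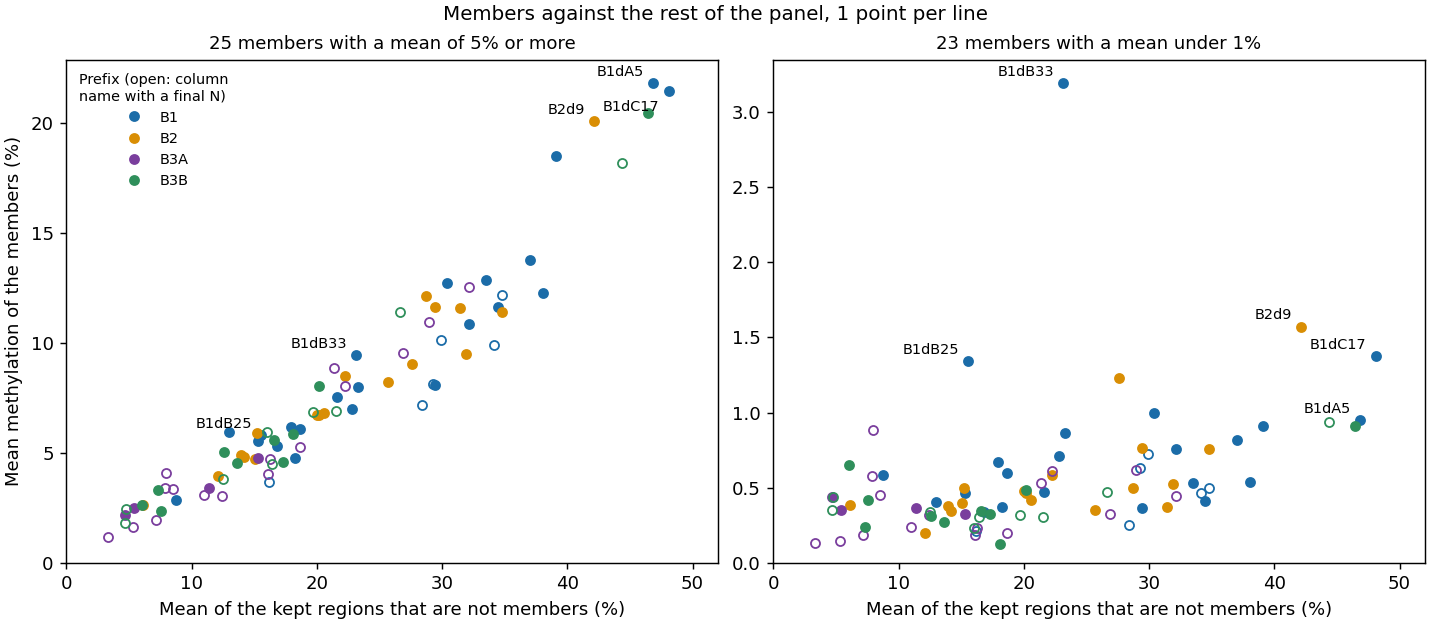
Mean methylation (percent) of the 25 members from 5% to 10% (left) and of the 23 members under 1% (right) against the mean of the non-members, 1 point per line. The left panel follows the panel mean closely, and in the right panel B1dB33 lies at 3.19% while the next line lies at 1.57%.

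The prefix of the line name is the grouping of lines compared here, and the comparison asks whether the members differed between these groups. At most members the B1 lines were highest and the B3A lines lowest. The F test between the 4 prefixes (limma on the log2 odds, adjusted over all 787 kept regions, threshold 0.05) called 62 of 88 members, against 81.6% of all kept regions. Among regions with a mean under 10%, it called 39 of the 85 aging_Young and aging_shared regions. Of the 222 such regions of all categories but aging_Meer, it called 121. B1 had the highest mean at 47 and B2 at 15 of the 62, and B3A had the lowest at 58 and B3B at 4. It called 8 of the 23 regions under 1%, 31 of the 40 from 1% to 5% and 23 of the 25 from 5% to 10%. Because the regions of a line rise and fall together, these calls are not independent of each other.

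By pair, B1 exceeded B3A at 73 members (85.3% of all kept regions were called in this direction), B1 exceeded B3B at 43 (67.1%) and B2 exceeded B3A at 49 (72.4%). No member was called in the other direction. The median difference over members was 0.63 on the log2 odds scale for B1 against B3A, 0.41 for B1 against B3B and 0.52 for B2 against B3A, beside 1.21, 0.87 and 0.95 over all kept regions. The fit adds an offset of 0.01 to each fraction, which shrinks differences at low levels, where the members lie. The medians of the members and of all kept regions are therefore not directly comparable. In limma no member was called between B1 and B2 (0% of kept regions), B2 and B3B (0.254%) or B3A and B3B (0%), where 8, 25 and 3 members had an unadjusted p under 0.05. Single lines moved some of these counts, and for the fits without them no share over all kept regions is given. Without B1dB33 the members under 1% called for B1 above B3B went from 9 to 2, without B2d9 the members called for B2 above B3A went from 49 to 29, and without B3Bd8 those called between B2 and B3B went from 0 to 15.

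Libraries were not spread evenly over the prefixes. A final N in the column name, whose meaning the sources used here do not state, marked 16 of 20 B3A, 9 of 19 B3B and 6 of 28 B1 columns and no B2 column. With the final N as a term of the model, limma called 39 members (74.2% of kept regions). Among the 54 columns without it, limma called 30 (67.3%). Among the 31 with it, which hold 3 prefixes, limma called none (0.254%). There, 2 members had an unadjusted p under 0.05, beside 264 of all 787 kept regions. Without the final N, limma called B1 above B3A at 40 members (71.4%), B1 above B3B at 23 (50.2%) and B2 above B3A at 22 (57.8%), and 1 member by the F test with the library mean as covariate (0.381%). B1 had the higher fitted level of B1 and B3A at 85 and 78 of the 88 in these 2 sets. Without the final N, the member mean was 4.50% ± 2.32 (SD, n = 22) for B1 lines and 1.60% ± 0.445 (SD, n = 4) for B3A lines. With it, the values were 3.63% ± 1.24 (SD, n = 6) and 2.41% ± 1.48 (SD, n = 16). The names of 1 pair of columns, B1dB37 and B1dB37N, differed by the final N alone. Each has its own title, the labels do not say whether both are 1 line, and they were counted as 2. Their member means were 2.07% and 1.57%, and without B1dB37N limma called 67 members by the F test and 77 for B1 above B3A, without B1dB37 63 and 74.

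Some lines also had 2 titles in the labels, 1 of which ends in WA. The column names do not say which of the 2 titles such a column belongs to. Among the 68 lines with exactly 1 title, 42 members were called (69.1%), and 2 for B2 above B3A (1.14%), where all lines gave 49. The B2 lines with 2 titles had a member mean of 5.801% ± 2.58 (SD, n = 4), and those with 1 title 3.21% ± 1.28 (SD, n = 14). The part of the final N and of the second title in the difference between prefixes was not tested beyond these fits.

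Trp53i11 (chromosome 2, 93192198 to 93192698, within the gene) had the smallest p of the F test (limma, adjusted p = 7.52e-05). At Trp53i11 B1 lines ran from 2.52% to 36.6% with a median of 9.82%, B2 lines from 2.50% to 31.2% with a median of 6.39%, B3A lines from 0% to 8.77% with a median of 2.63% and B3B lines from 0% to 25.8% with a median of 3.40%. The median B1 line lay above every B3A line, although the ranges overlap. B1 exceeded B3A by 1.73 ± 0.30 (SE) on the log2 odds scale. Syne3 (chromosome 12, 104999151 to 104999651) had a mean of 13.03% ± 8.44 (SD, n = 28) over B1 lines, 8.32% ± 5.57 (SD, n = 18) over B2, 4.73% ± 3.30 (SD, n = 20) over B3A and 7.91% ± 8.54 (SD, n = 19) over B3B. No B1 line was under 4.56% there, and no B3A line was over 12.4%. Dmrta1 (chromosome 4, 89687953 to 89688453) had the same highest and lowest prefix at a lower level, with medians of 2.54%, 2.12%, 0.930% and 0.960% for B1, B2, B3A and B3B, and B1 above B3A by 0.83 ± 0.18 (SE).

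The other regions among the 10 smallest p were 1700003E16Rik, Gdpgp1, Lrp1, Gdf1, Hapln4, a gene of the extracellular matrix of neurons, Arhgef40 and Cnmd. Hapln4 had means of 8.05%, 8.16%, 4.84% and 5.77% and Arhgef40 of 8.40%, 8.63%, 4.99% and 5.82% in the order B1, B2, B3A, B3B, so that B2 was as high as B1 at both. Cnmd had means of 11.9%, 11.5%, 5.82% and 7.78% in the same order.

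**Figure D5:**
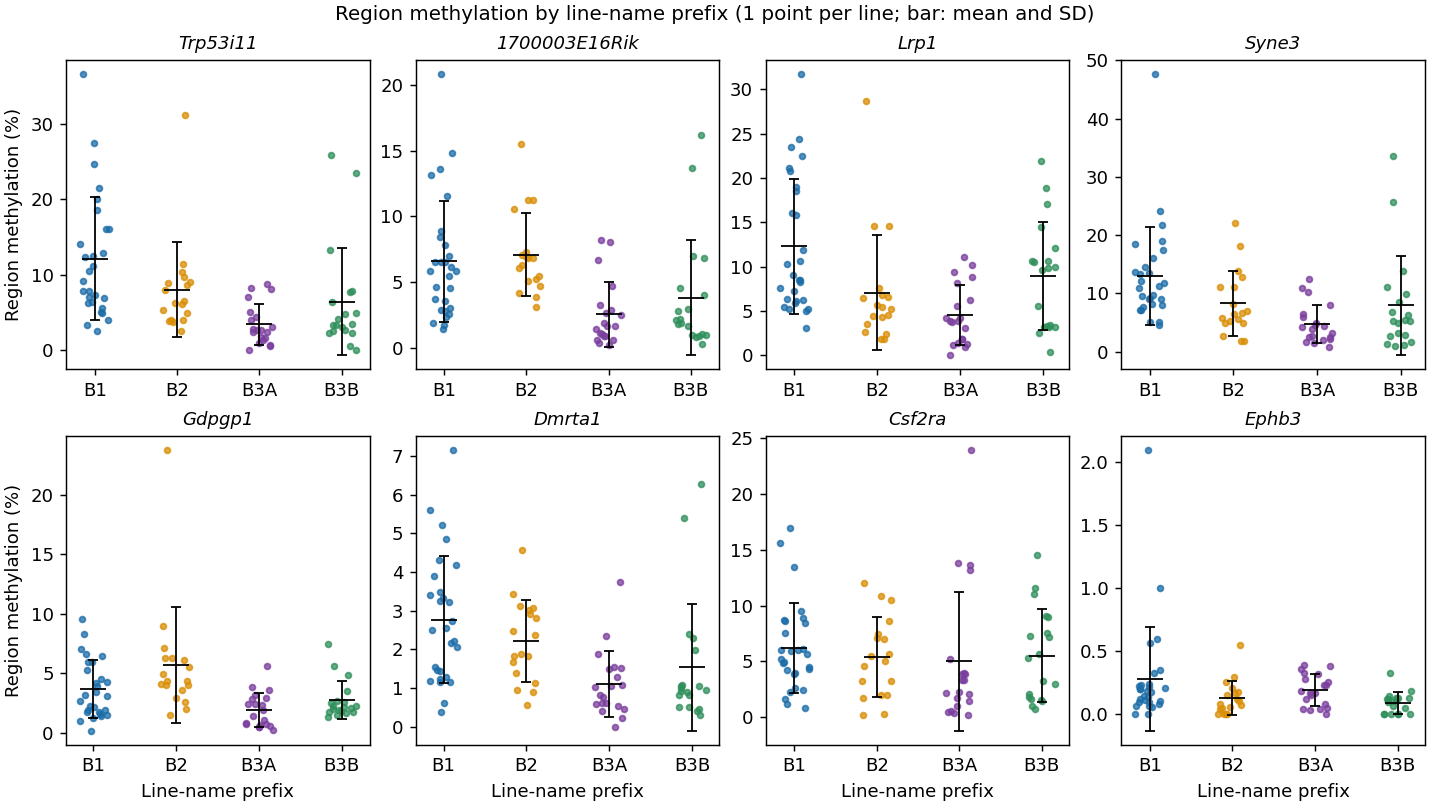
Region methylation (percent) of 8 members by line-name prefix, 1 point per line with the mean and SD. B3A has the lowest mean at Trp53i11, 1700003E16Rik, Lrp1, Syne3, Gdpgp1 and Dmrta1, B2 has the highest mean at Gdpgp1, and the prefixes of Csf2ra and Ephb3 overlap.

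Adding each library's mean log2 odds over the non-members to the model asks whether a member differed between prefixes at a given overall level. With this covariate 3 of 88 members were called, and 3.43% of all kept regions. The region in 1700003E16Rik, an uncharacterised gene (chromosome 6, 83161411 to 83161911), had the smallest value (limma, adjusted p = 0.00623). At this region B1 lines ran from 1.45% to 20.8% with a median of 5.88%, B2 lines from 3.17% to 15.5% with a median of 6.57%, B3A lines from 0.284% to 8.23% with a median of 1.70% and B3B lines from 0.298% to 16.2% with a median of 2.12%. Every B2 line lay above the medians of B3A and B3B. The ranges and medians given for the called regions are not adjusted for the overall level. The mean over the non-members was 22.9% in B2, 14.2% in B3A and 17.5% in B3B lines. The region of 1700003E16Rik kept its call under every alternative run with the covariate, with adjusted p from 0.00217 to 0.0242 in limma.

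Gdpgp1, a gene of GDP-glucose breakdown (chromosome 7, 80238240 to 80238740), was called at an adjusted p of 0.0356 in limma. At Gdpgp1 B1 lines ran from 0.155% to 9.52% with a median of 3.11%, B2 lines from 1.48% to 23.8% with a median of 4.32%, B3A lines from 0.218% to 5.63% with a median of 1.63% and B3B lines from 1.27% to 7.48% with a median of 2.18%. The highest value was in the B2 line B2d9, and every other line was under 10%. The call was lost without any 1 of 6 lines, B2d2A, B2d3, B3Ad10N, B3Ad15N, B3Ad20N or B2d9 (limma, adjusted p up to 0.0719, without B2d9), and among the columns without a final N it was 0.461. Lrp1, an endocytic receptor gene (chromosome 10, 127619877 to 127620377), was also called at 0.0356 in limma. At Lrp1 B1 lines ran from 3.05% to 31.7% with a median of 8.73%, B2 lines from 1.80% to 28.7% with a median of 5.31%, B3A lines from 0% to 11.04% with a median of 3.87% and B3B lines from 0.370% to 21.9% with a median of 9.87%. Here B3B had the highest median, and B2 lay between B3A and B1. With the covariate, no single pair of prefixes was called at Lrp1. Lrp1 lost its call among columns without a final N (0.0632 in limma), with the library mean taken over fractions (0.0638) and without any 1 of 7 lines, B2d8, B2d17, B2d24, B3Bd15N, B3Bd18, B3Bd25N or B2d12 (up to 0.0548, without B2d12).

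Between B1 and B2 at a given level, 4 members were higher in B2 (2.8% of kept regions). They were 1700003E16Rik, Gdpgp1, Rfx4, a ciliary transcription factor gene, and F2r, the thrombin receptor gene. The region of 1700003E16Rik lies 24.5 kb from that of Dctn1, another member, and the pair had an r of 0.75 beside a median of 0.54 over all 3828 pairs of members. That median includes pairs with members under 1%, whose median r with the non-members was 0.23. The region of 1700003E16Rik had an r of 0.88 with the mean of the non-members. A part of the distance in the r of the pair was not tested.

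Transcription factor genes of development made up 6 of the members from a list of 269: Prdm13, Hoxd1, Sox7, Tbx1, Pitx1 and Foxa2. The F test called 5 of the 6, all but Prdm13 (limma, adjusted p = 0.0648), beside 81.6% of all kept regions. The contrast of B1 above B3A called all 6, beside 85.3%. Their median difference was 0.48 on the log2 odds scale beside 1.21 over all kept regions, and the offset again shrinks differences at low levels. Values below are given in the order B1, B2, B3A, B3B. Hoxd1, a homeobox gene of the body axis, had medians of 0.741%, 0.705%, 0.357% and 0.474%. Tbx1, a T-box gene of pharyngeal development, had medians of 3.14%, 3.08%, 1.45% and 1.51%, and its highest value, 10.6%, was in a B3B line. Sox7, a gene of endoderm and vessels, had means of 2.87%, 2.43%, 1.82% and 2.34%. Pitx1, a hindlimb and pituitary gene, had means of 4.12%, 4.30%, 2.38% and 2.81%. Foxa2 had the highest level of the 6, with means of 9.36%, 8.32%, 5.54% and 7.15% and SDs of 3.94, 3.55, 3.12 and 5.38 points. Sox7, Tbx1, Pitx1 and Hoxd1 were no longer called among the columns without a final N (limma, adjusted p = 0.130, 0.0949, 0.331 and 0.0886). With the final N as a term, Sox7, Pitx1 and Hoxd1 lost their calls (0.133, 0.201 and 0.110), and among lines with 1 title Sox7 and Pitx1 did (0.122 and 0.172). On fractions without transformation Sox7 and Hoxd1 were not called (0.0830 and 0.0889), nor was Sox7 with averages recomputed from the CpG table (0.245) or without any 1 of 6 columns, B1dA5, B3Ad14N, B3Ad16N, B3Ad20N, B3Ad29N or B3Ad33N (up to 0.0645).

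The Foxa2 window could be set against other targets at the same gene. It overlapped by 261 positions a window that the authors filed under Cancer, which had 3.77% ± 2.37 (SD, n = 85). The pair shares CpGs and had an r of 0.96. A further Cancer window 5.08 kb away had 3.47% ± 2.19 (SD, n = 85) and an r of 0.87 with the member. At Ptprd, a receptor phosphatase gene, a window filed under aging_Young shared 58 positions with the member. That window had 9.81% ± 8.51 (SD, n = 82) against 1.04% ± 1.29 (SD, n = 84) in the member, with an r of 0.14. In Pde2a a Cancer window 47.6 kb away stood at 18.5% beside the member's 8.71%, with an r of 0.84.

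Signalling genes gave 6 members: the ligand genes Bdnf, Bmp8b and Gdf1 and the receptor genes Ephb3, Fzd5 and Pdgfrb. The F test called 2, Bmp8b and Gdf1, beside 81.6% of all kept regions. B1 above B3A was called at 4, all but Ephb3 and Pdgfrb, beside 85.3%. Gdf1, a ligand of the TGF-beta superfamily whose window also overlaps Cers1, had the highest level. At Gdf1 B1 lines ran from 3.63% to 22.1% with a median of 12.3%, B2 lines from 3.70% to 19.3% with a median of 8.41%, B3A lines from 2.84% to 16.4% with a median of 5.75% and B3B lines from 2.80% to 27.2% with a median of 6.21%. No line was under 2.80% there, and each of the other 5 had lines under 0.1%. Bmp8b, of the same superfamily, had medians of 2.65%, 2.28%, 1.42% and 2.11%, and its call was lost among lines with 1 title (limma, adjusted p = 0.224), among columns without a final N (0.140), with recomputed averages (0.0826), with the offset of 0.002 (0.0546) and on fractions without transformation (0.0529). It was also lost without any 1 of 8 B3A columns, B3Ad14N, B3Ad16N, B3Ad20N, B3Ad23N, B3Ad26N, B3Ad29N, B3Ad30 or B3Ad36 (limma, adjusted p up to 0.0696). Bdnf, a neurotrophin gene, had means of 1.08%, 1.05%, 0.650% and 0.709%.

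Among the receptor genes, Fzd5, a Wnt receptor gene, had medians of 0.498%, 0.392%, 0.369% and 0.235%. Ephb3 had medians of 0.179%, 0.0918%, 0.177% and 0.104%, so that B3A was as high as B1 (limma F test, adjusted p = 0.138). Pdgfrb, a growth factor receptor gene, had medians of 2.49%, 2.22%, 1.60% and 1.69%, with 20.1% in the B3B line B3Bd44N and 15.4% in the B1 line B1dC17 (limma F test, adjusted p = 0.385).

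Of the genes listed for channels, receptors and adhesion of the nervous system, 3 were members. Kcns1, a potassium channel subunit gene, and Cdh4, the gene of R-cadherin, were called by the F test (limma, adjusted p = 0.000682 and 0.00530), and Drd2, a dopamine receptor gene, was not (0.07). Over all kept regions this test called 81.6%. Kcns1 had medians of 2.97%, 2.21%, 1.24% and 1.45%, Cdh4 of 2.41%, 1.76%, 0.826% and 0.763% and Drd2 of 1.32%, 1.05%, 0.805% and 0.560%. In all 3 the B1 median was the highest. The call of Cdh4 was lost among columns without a final N (limma, adjusted p = 0.0814) and with averages recomputed from the CpG table (0.0746). Lipe, the gene of hormone-sensitive lipase and the 1 metabolic gene, had medians of 8.13%, 6.79%, 3.96% and 4.72% and was called (limma, adjusted p = 0.00375), but not on fractions without transformation (0.0552). No listed gene of chromatin or DNA methylation machinery and no pluripotency gene was a member. The panel targets of the pluripotency genes Nanog, Zfp42 and Tbx3, in another category, stood at 0.360%, 0.792% and 0.191%.

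The spread of the members was small in points and, against the higher aging_Meer regions, large in proportion to level. The rule chose the members by their mean, which bears on both measures, so the values are a description. The median SD of the members between lines was 1.82 points, against 18.9 in the higher aging_Meer regions, 1.36 in the low aging_Young and aging_shared regions and 11.4 over all kept regions. The median SD of a region divided by its mean was 0.819, against 0.571 in the higher aging_Meer regions and 0.950 in the low aging_Young and aging_shared regions. It was 0.935 in the low regions of all categories but aging_Meer. Within the members the median SD was 0.585, 1.79 and 5.41 points in the 3 bands of mean.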

How the data were processed

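The authors' deposited tables give methylation as fractions, 1 table per target region and 1 per CpG, with 85 columns each; their names state a coverage filter of 10. The submitters' processing notes name Trim Galore 0.6.4, Bismark, Bowtie2 and mm10 without settings. Missing region values were left out, and fractions are printed as percent. Of the columns, 44 matched 1 title and 41 were used by their prefix only. Columns were treated as lines. Nothing says that they are separate cultures, so p-values reflect the spread between columns, which may be technical. Kept regions, 787 in all, were fitted with limma 3.58.1 (R 4.3.3) on log2((fraction + 0.01)/(1 - fraction + 0.01)), and p-values were adjusted over all of them by Benjamini-Hochberg. The test was checked on simulated data in which regions varied independently of each other. That check cannot speak to regions that rise and fall together within a line. Windows took the name of the gene they overlap, or else the nearest within 5 kb, in RefSeq GRCm38.p6.

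The members, gene lists and tests were chosen with earlier results of these data known. Named were the 8 regions with the largest SD, the 10 with the smallest p of the F test, the 3 lowest, the 3 on each side of the 10% mean, those called with the covariate, the 5 highest and 5 lowest in r and those on a gene list; no member had a value over 50%, which was a further criterion. Alternatives varied the offset, the filter, the columns, the covariate and the averaging of CpGs. Values and plots used Python 3.11.15, NumPy 2.4.6, pandas 2.3.3, SciPy 1.17.1 and matplotlib 3.10.9.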

Additional observations from a re-analysis of the deposited data

How the results depend on the processing

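The number of members called by the F test between prefixes was 62, beside 81.6% of all kept regions. It was 39 with the final N as a term (74.2%), 30 among columns without a final N (67.3%) and 0 among those with it (0.254%). It was 0 among the 16 lines with 2 titles (0 of the 787 kept regions). It was 39 of the 63 members with a mean under 5%, and 3 with the library mean as covariate (3.43%). It stayed within 1.5 times of 62 under the other alternatives, with offsets of 0.05 (56) and 0.002 (65), without transformation (42) and with averages recomputed from the CpG table (49 of 78). Columns with a final N and lines with 2 titles were taken alone, and single columns left out, as alternatives chosen after seeing the data. For the columns with a final N and the lines with 2 titles, limma gave 2 and 5 members an unadjusted p under 0.05. Of all 787 kept regions, 264 and 389 had one. With the covariate, 1 member was called among columns without a final N (0.381% of kept regions) in place of 3 (3.43%). Without a final N, B1 above B3A, B1 above B3B and B2 above B3A were called at 40, 23 and 22 members (71.4%, 50.2% and 57.8% of kept regions). Lines with 1 title gave 2 for B2 above B3A (1.14%). The cause of these changes was not tested; the subsets hold fewer columns. Leaving out 1 column at a time gave 56 to 69 members by the F test, 2 to 4 with the covariate, 66 to 77 for B1 against B3A, 33 to 62 for B1 against B3B, 29 to 56 for B2 against B3A and 0 to 15 for B2 against B3B. No share over all kept regions is given for these ranges, the offsets, the untransformed fractions or the recomputed averages. For B2 against B3A only B2d9 moved the count by over 1.5 times; for B2 against B3B, 0 became more without B2d27, B2d31, B3Bd15N, B3Bd44N or B3Bd8. Without B1dB33 the members under 1% called by the F test went from 8 to 6, those called for B1 against B3B from 9 to 2 and for B1 against B3A from 13 to 9. Of the 28 named members called by the F test, 28 kept the call with the offset of 0.05, 26 with 0.002, 24 with the final N as a term, 23 among lines with 1 title, 21 without transformation, 22 of 26 with recomputed averages and 18 among columns without a final N. The number of members was 81 to 88 and their median SD 1.53 to 1.94 points under the alternatives run for them. The coverage behind each value is unknown, and its limit on values near 0 cannot be stated. Averages recomputed from the CpG table differed from the deposited means by up to 5.57 points (Pde2a), with a median r of 0.959 over 78 members. Of these, 54 had an r over 0.9, and the lowest was 0.41 at Rtkn2, where the mean went from 4.41% to 0.676%. At Trp53i11 it went from 7.91% to 3.77%. The recomputed means of Pde2a (14.3%), Elfn1 (12.5%), Gdf1 (11.4%) and Lrp1 (10.9%) lay over the 10% ceiling of the rule. No paired analysis was possible because the columns carry no replicate numbers shared between prefixes.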
